A study of Mus musculus with 8 samples.

Results

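Genes that leukocytes express were measured in adipocyte precursors, mesenchymal cells of the dermis that can form fat cells, after sorting by flow cytometry. The set holds 53 gene symbols of myeloid cells and of leukocytes in general, and members were the rows of the deposited isoform table whose gene symbol equals one of them. Of these symbols 51 had a row, with 77 isoforms among the 34535 isoforms and 24356 gene symbols of the table. Emr1 is the older name of Adgre1, which is itself in the set, and Lilrb4 stood in the table under its current symbol Lilrb4a, so both symbols had no row of their own.

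Precursors came from the wound bed at day 5 (2 samples) and from nonwounded dorsal skin (6 samples). All samples were dermis of male C57/Bl6 mice aged 7 weeks, with no allele, transgene or agent named in the labels, and RNA of the sorted cells was sequenced as TruSeq mRNA libraries. The labels give no sort markers, so whether the gate removed leukocytes is not given in the sources used here. Nothing in them tells if each sample was its own mouse, so the p-values may measure technical spread. Each isoform had 1 value per group in FPKM (fragments scaled to transcript length and to library size), pooled over the samples by the authors, without values per sample, so no SD is given and overlap between samples could not be described.

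Leukocytes share a set of surface and cytoskeletal proteins that other cells largely lack, led by CD45, the phosphatase that Ptprc encodes. Monocytes, macrophages and neutrophils add Fc receptors, complement receptors, C-type lectins and an oxidase that makes superoxide in phagosomes, many of them under the transcription factor PU.1, the product of Spi1. In skin, macrophages live in the dermis at rest, and neutrophils and monocytes enter a wound from the blood.

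Most of these genes stood higher in the wound bed sort, and most had at least 1 FPKM in the nonwounded sort too. Of the 51 members 19 rose and 0 fell, with 2 not tested by the authors. An unadjusted p under 0.05 was found for 34 members, and for none of the 3 with a lower value. The share of all tested genes under that unadjusted p was not counted, so the 34 cannot be set against it. Called means a Benjamini-Hochberg adjusted p under 0.05, taken over all 17775 tested isoforms from the Cuffdiff p-values that the authors' deposited table holds, for the major isoform, the tested isoform of a gene with the highest summed FPKM. Among the major isoforms of all 13718 genes with a tested isoform, 7.01% were called higher and 8.67% lower. At thresholds of 0.01 and 0.1 the members called higher were 14 and 25, beside 4.56% and 9.24% of those genes, and 0 members were called lower, beside 5.64% and 11.9%. The called members had log2 fold changes (wound bed over nonwounded) between 1.15 for Fcer1g and 2.52 for C3ar1.

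The major isoform had the higher FPKM in the wound bed for 48 members and the lower one for 3, Aif1, Cd37 and Cyba. Of 13134 tested genes with both values above 0, 43.0% had the higher value in the wound bed. The median log2 fold change was 1.60 over the 51 members, beside -0.14 over 13134 tested genes with both values above 0. A log2 fold change of at least 1 was seen for 40 members, and for 13.7% of those genes. Isoforms of the members summed to an FPKM of 1479 in the wound bed against 643 in nonwounded skin, of which Lyz2 was the largest part, and without it to 955 in wound bed cells and 469 in nonwounded cells. In RNA pooled from many cells, more cells of a type and more RNA per cell cannot be told apart, nor can leukocytes inside the sort and expression by the precursors themselves.

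**Figure D1:**
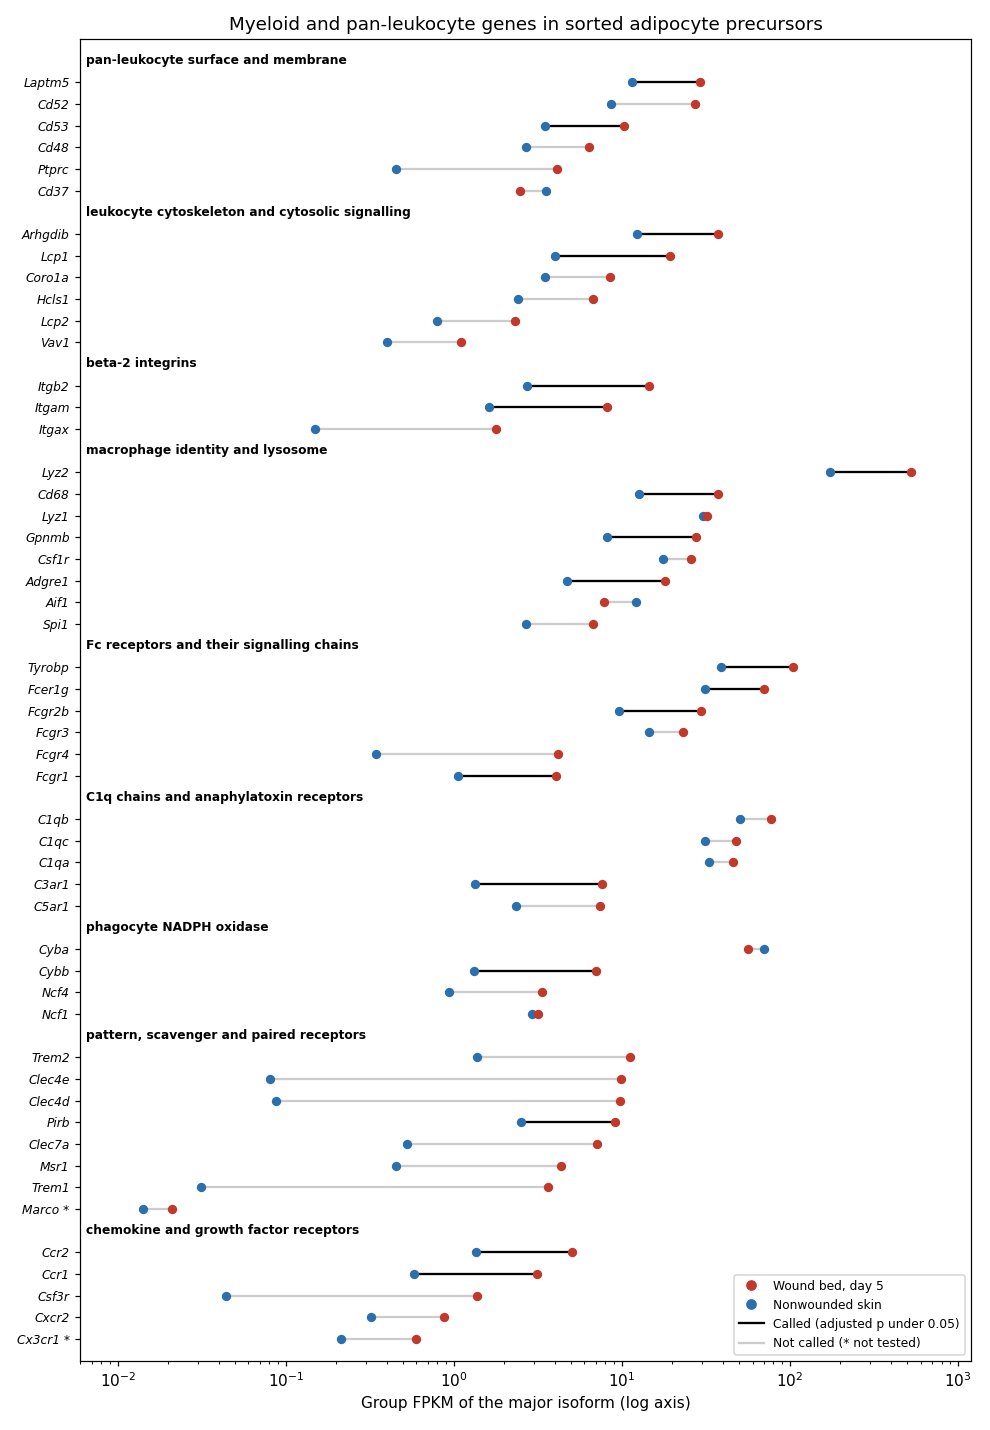
Group FPKM of the major isoform (horizontal log axis) of each of 51 leukocyte genes, by role, in the wound bed (red) and in nonwounded skin (blue). A black bar joins the values of the 19 genes that were called and a grey bar those of the others, with an asterisk at Marco and Cx3cr1, which were not tested. Red lies right of blue for 48 genes, and the pairs of Lyz1, Ncf1 and Cyba lie closest together.

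The pan-leukocyte surface genes were led by Laptm5, which encodes a lysosomal membrane protein of blood cells. It had an FPKM of 29.1 in the wound bed against 11.5 in nonwounded skin and rose by 1.34 on the log2 scale (adjusted p of 0.00167). Cd53, a tetraspanin gene, had 10.3 in the wound bed against 3.47 in nonwounded skin and rose by 1.57 (adjusted p of 0.00819). These were the 2 of 6 genes of this kind that passed the test.

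The major isoform of Ptprc stood at 4.13 in the wound bed against 0.453 in nonwounded skin, and its adjusted p was 0.327. A second tested isoform stood at 1.55 in the wound bed against 0.342 in nonwounded skin, also without a call. All isoforms of Ptprc summed to 5.68 in the wound bed against 0.806 in nonwounded skin. Among 13718 genes ordered by the FPKM of the major isoform, Ptprc took rank 7804 in the wound bed. In nonwounded skin it took rank 13244, near the lower end of the list. Cd52, a short glycosylphosphatidylinositol-anchored peptide of lymphocytes and myeloid cells, had 27.1 in wound bed cells and 8.58 in nonwounded cells with an adjusted p of 0.130. Cd48, a ligand of the SLAM family, had 6.38 in the wound bed against 2.71 in nonwounded skin and was not called (adjusted p of 0.249).

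Cd37, a tetraspanin gene, was the exception of the group. Its major isoform had 2.47 in the wound bed against 3.54 in nonwounded skin, which is a log2 difference of -0.52 with an adjusted p of 0.767. A second tested isoform had 2.93 in the wound bed against 0.461 in nonwounded skin, and the sum of all its isoforms gave 0.40 on the log2 scale, so the sign for this gene depended on how isoforms were combined.

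Genes of the leukocyte cytoskeleton and of cytosolic signalling stood higher for all 6 major isoforms, and 2 of them rose. Lcp1, which encodes the actin bundler L-plastin, had 19.5 in the wound bed against 4.03 in nonwounded skin, a rise of 2.27 on the log2 scale (adjusted p of 0.00368). Its locus in the table spans 5 other genes. Arhgdib, which encodes a cytosolic inhibitor of small GTPases rich in blood cells, had 37.5 in the wound bed against 12.4 in nonwounded skin and rose by 1.60 (adjusted p of 0.000882).

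The other 4 genes of this kind had log2 fold changes between 1.29 and 1.55 and were not called. Coro1a, a coronin that binds actin in leukocytes, had 8.53 in the wound bed against 3.49 in nonwounded skin (adjusted p of 0.0843). Hcls1, a cortactin relative of blood cells, had 6.77 in the wound bed against 2.40 in nonwounded skin, with an adjusted p of 0.0591. Lcp2, which encodes the adaptor SLP-76, had 2.32 in wound bed cells and 0.792 in nonwounded cells, and Vav1, which encodes a guanine nucleotide exchange factor, had 1.10 in the wound bed against 0.401 in nonwounded skin.

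The beta-2 integrins let leukocytes adhere to endothelium and take up complement-coated particles. Itgb2, the shared beta chain, had an FPKM of 14.5 in the wound bed against 2.73 in nonwounded skin, a rise of 2.41 on the log2 scale (adjusted p of 0.000882). Itgam, which encodes the alpha chain CD11b, had 8.15 in wound bed cells and 1.62 in nonwounded cells and rose by 2.33 (adjusted p of 0.0396). Itgax, which encodes the alpha chain CD11c, had 1.78 in the wound bed against 0.150 in nonwounded skin and was just short of a call, with an adjusted p of 0.0533.

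A macrophage gene held the highest level of the set. Lyz2, the lysozyme gene of myeloid cells, had 524 in the wound bed against 174 in nonwounded skin, rank 156 in the wound bed and rank 413 in nonwounded skin of 13718 genes, and rose by 1.59 on the log2 scale (adjusted p of 0.000882). Its neighbour Lyz1, the lysozyme gene of Paneth cells, had 32.0 in the wound bed against 30.3 in nonwounded skin, which is a log2 difference of 0.08. The loci lie 5522 bases apart on chromosome 10 (Lyz2 from 117277541 to 117282272 as the table gives it, in positions that match GRCm38.p6 genes although mm9 is named in the submitters' processing notes), and because the genes are near copies, reads shared between them make the level of Lyz1 uncertain.

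Adgre1, which encodes the macrophage antigen F4/80, had 18.1 in the wound bed against 4.71 in nonwounded skin and rose by 1.94 (adjusted p of 0.000882). Gpnmb, a glycoprotein gene of lipid-laden and tissue-repair macrophages, had 27.6 in the wound bed against 8.21 in nonwounded skin and rose by 1.75. Cd68, a lysosomal glycoprotein gene, had 37.4 in wound bed cells and 12.6 in nonwounded cells and rose by 1.57 (adjusted p of 0.00306). All 4 called genes of this group thus lay within a narrow band of fold changes, from 1.57 to 1.94.

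The other macrophage genes were not called. Csf1r, which encodes the receptor that macrophages need to survive, had 25.9 in the wound bed against 17.6 in nonwounded skin, which is a log2 difference of 0.56 (adjusted p of 0.142). Spi1 had 6.77 in the wound bed against 2.70 in nonwounded skin, which is a log2 difference of 1.33 without a call (adjusted p of 0.145). Aif1, which encodes the macrophage calcium-binding protein Iba1, had 7.80 in the wound bed against 12.2 in nonwounded skin, and at -0.65 it had the lowest fold change of the members (adjusted p of 0.376).

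PU.1 binds purine-rich DNA, and the letters GAGGAAGT, read on both strands, were searched in the 250 bases before the start of each gene, with promoters from RefSeq (GRCm38.p6). They occurred for 5 of the 42 members with a promoter in that table, 11.9%, and for 2.79% of all 27025 genes there. The 5 were C1qc, Cd37, Fcgr4, Pirb and Vav1, whose log2 fold changes ran from -0.52 for Cd37 to 3.60 for Fcgr4. A match describes letters and is not a measured binding site. The promoters of the 3 with the largest fold changes are shown 5′ to 3′ along the gene's strand, with the matched letters in capitals, to show where the match lies. Positions are those of the RefSeq table. The Pirb window is chr7:3720383-3720632 on the minus strand, with the match starting 120 bases before the gene. The Fcgr4 window is chr1:171018676-171018925 on the plus strand, with the reverse complement starting 24 bases before the gene, and the Vav1 window is chr17:57278850-57279099 on the plus strand, with the match starting 11 bases before it.
Pirb: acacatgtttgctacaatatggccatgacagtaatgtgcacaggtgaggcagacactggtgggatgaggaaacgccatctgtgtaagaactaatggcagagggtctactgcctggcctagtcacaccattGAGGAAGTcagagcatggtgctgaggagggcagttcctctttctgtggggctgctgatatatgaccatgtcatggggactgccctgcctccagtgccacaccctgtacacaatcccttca
Fcgr4: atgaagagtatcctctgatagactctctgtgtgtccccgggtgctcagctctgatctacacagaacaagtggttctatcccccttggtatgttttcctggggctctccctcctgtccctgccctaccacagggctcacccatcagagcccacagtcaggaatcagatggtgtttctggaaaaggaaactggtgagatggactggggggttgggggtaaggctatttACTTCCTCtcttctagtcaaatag
Vav1: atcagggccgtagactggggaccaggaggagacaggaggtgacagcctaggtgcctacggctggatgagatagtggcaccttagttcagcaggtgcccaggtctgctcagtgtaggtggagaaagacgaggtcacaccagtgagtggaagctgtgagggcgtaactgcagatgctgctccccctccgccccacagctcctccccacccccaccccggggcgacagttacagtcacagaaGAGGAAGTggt

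Several activating receptors, those for the constant part of antibodies among them, signal through small chains with activating tyrosine motifs, and these chains were among the most abundant members. Tyrobp, which encodes the chain DAP12 that serves Trem receptors, had an FPKM of 104 in the wound bed against 38.9 in nonwounded skin and rose by 1.42 on the log2 scale (adjusted p of 0.00368). Fcer1g, the common gamma chain of Fc receptors, had 69.9 in wound bed cells and 31.4 in nonwounded cells and rose by 1.15 (adjusted p of 0.0203).

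Fcgr1, the high-affinity receptor for immunoglobulin G, had 4.04 in the wound bed against 1.07 in nonwounded skin and rose by 1.92 (adjusted p of 0.0254). Fcgr2b, the inhibitory receptor of the family, had 29.7 in the wound bed against 9.59 in nonwounded skin and rose by 1.63 (adjusted p of 0.000882). The activating receptor genes Fcgr3 and Fcgr4 were not called. Fcgr3 had 23.0 in the wound bed against 14.5 in nonwounded skin (adjusted p of 0.149), and Fcgr4, whose promoter is shown above, had 4.19 in wound bed cells and 0.346 in nonwounded cells, a 12.1-fold difference with an adjusted p of 0.0631. Fcgr2b, Fcgr4 and Fcgr3 follow each other on chromosome 1, and Fcgr2b and Fcgr3 share much of their extracellular sequence, so that the split of reads between those 2 is uncertain.

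The C1q chains, which start the classical complement cascade and come mainly from macrophages, stood above 30 FPKM in both sorts and did not pass the test. C1qb had 77.5 in the wound bed against 50.8 in nonwounded skin, C1qc had 47.6 in the wound bed against 31.4 in nonwounded skin, and C1qa had 45.9 in wound bed cells and 32.9 in nonwounded cells. Their log2 fold changes were 0.61, 0.60 and 0.48, with adjusted p of 0.140, 0.226 and 0.307. The 3 genes lie in a row on chromosome 4 (C1qb from 136880145 to 136886177, C1qa from 136895916 to 136898844).

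Receptors for the complement fragments C3a and C5a, by which phagocytes sense complement activation, stood further apart between the groups. C3ar1 had 7.65 in the wound bed against 1.34 in nonwounded skin, and its rise of 2.52 on the log2 scale was the largest of the called members (adjusted p of 0.00239). C5ar1 had 7.39 in the wound bed against 2.34 in nonwounded skin, which is a log2 difference of 1.66 with an adjusted p of 0.0564.

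Of the phagocyte NADPH oxidase, 1 of 4 measured subunits rose. Cybb, the catalytic subunit gp91phox, had 7.00 in the wound bed against 1.32 in nonwounded skin, a rise of 2.41 on the log2 scale (adjusted p of 0.00306). Its membrane partner Cyba, which also pairs with oxidases of other cell types, had 56.3 in wound bed cells and 70.6 in nonwounded cells and a log2 fold change of -0.33 (adjusted p of 0.470).

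Ncf1 and Ncf4 encode cytosolic subunits of the complex. Ncf4 had 3.34 in the wound bed against 0.932 in nonwounded skin without a call (adjusted p of 0.234). The major isoform of Ncf1 had 3.19 in the wound bed against 2.94 in nonwounded skin, which is a log2 difference of 0.12, whereas a second isoform had 3.18 in the wound bed against 0.00194 in nonwounded skin, and the sum gave 1.12. Of the partners outside the set, Rac2, a GTPase gene of blood cells, stood at 2.06 in the wound bed, 1.03 times its nonwounded level, without a call. Noxa1, an activator of another oxidase, was not tested and was listed at 0 in nonwounded skin. None of the 5 tested oxidase partners was called, beside 15.7% of all genes with a tested isoform (either direction). For 3 of these partners the unadjusted p was under 0.05.

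Pattern recognition, scavenger and paired receptors had the largest fold changes of the set, but Pirb alone among them passed the test. Pirb, a receptor with inhibitory tyrosine motifs that binds major histocompatibility class I, had 9.14 in the wound bed against 2.51 in nonwounded skin and rose by 1.87 on the log2 scale (adjusted p of 0.00368). It has near copies in the Pira genes, and reads shared with them make its value uncertain.

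Clec4e, which encodes Mincle, a lectin that senses glycolipids and dead cells, had 9.91 in the wound bed against 0.0802 in nonwounded skin, which is a log2 difference of 6.95 with an adjusted p of 0.114. Its neighbour on chromosome 6, Clec4d, a lectin that pairs with Mincle, had 9.74 in wound bed cells and 0.0879 in nonwounded cells (6.79, adjusted p of 0.406). Trem1, an amplifying receptor of neutrophils and monocytes, had 3.62 in the wound bed against 0.0312 in nonwounded skin (6.86, adjusted p of 0.287). All 3 of these genes stood under 0.1 FPKM in nonwounded skin, so that their fold changes rest on very small denominators.

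Clec7a, which encodes the fungal glucan receptor dectin-1, had 7.15 in the wound bed against 0.525 in nonwounded skin (adjusted p of 0.117). Trem2, a lipid receptor of tissue macrophages, had 11.2 in wound bed cells and 1.37 in nonwounded cells (adjusted p of 0.0990), and Msr1, a scavenger receptor, had 4.38 in the wound bed against 0.451 in nonwounded skin (adjusted p of 0.125). Marco, a scavenger receptor of other macrophage subsets, was not tested and stood at 0.0211 in the wound bed against 0.0141 in nonwounded skin. Lilrb4a, an inhibitory receptor listed in the set by its older symbol and left out of the counts, had 14.5 in the wound bed against 0.991 in nonwounded skin without a call (adjusted p of 0.198), and it has a near copy that makes its value uncertain.

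Receptors that guide leukocytes into tissue were low in both groups. Ccr2, the receptor of inflammatory monocytes for the chemokine CCL2, had 5.05 in the wound bed against 1.36 in nonwounded skin and rose by 1.90 on the log2 scale (adjusted p of 0.0424). Ccr1, a receptor for several CC chemokines, had 3.14 in wound bed cells and 0.582 in nonwounded cells and rose by 2.43 (adjusted p of 0.0198).

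The receptors most used by neutrophils were not called. Csf3r, the receptor of granulocyte colony-stimulating factor, had 1.37 in the wound bed against 0.0440 in nonwounded skin (adjusted p of 0.390). Cxcr2, a receptor for neutrophil chemokines, had 0.872 in the wound bed against 0.323 in nonwounded skin (adjusted p of 0.350). Cx3cr1, the fractalkine receptor of resident macrophages and patrolling monocytes, was not tested and stood at 0.596 in wound bed cells and 0.212 in nonwounded cells.

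The members differed by their level in nonwounded skin. The 14 members with at least 10 FPKM there had a median log2 fold change of 0.64, from -0.65 for Aif1 to 1.60 for Arhgdib, and 6 of them rose. The 21 members between 1 and 10 FPKM had a median of 1.75, and 12 rose. The 16 members under 1 FPKM had a median of 3.23, and Ccr1 was the 1 that rose, while 2 were not tested. Nonwounded FPKM is the denominator of the fold change, so that low values raise it by construction. A member low in nonwounded skin may also have been tested only through its wound bed value. All tested genes in the same 3 ranges had medians of -0.20, -0.18 and 1.10, whereas the 3.23 includes the 2 members not tested. The share of all tested genes called in each range was not counted, so the numbers of members that rose cannot be compared between ranges.

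**Figure D2:**
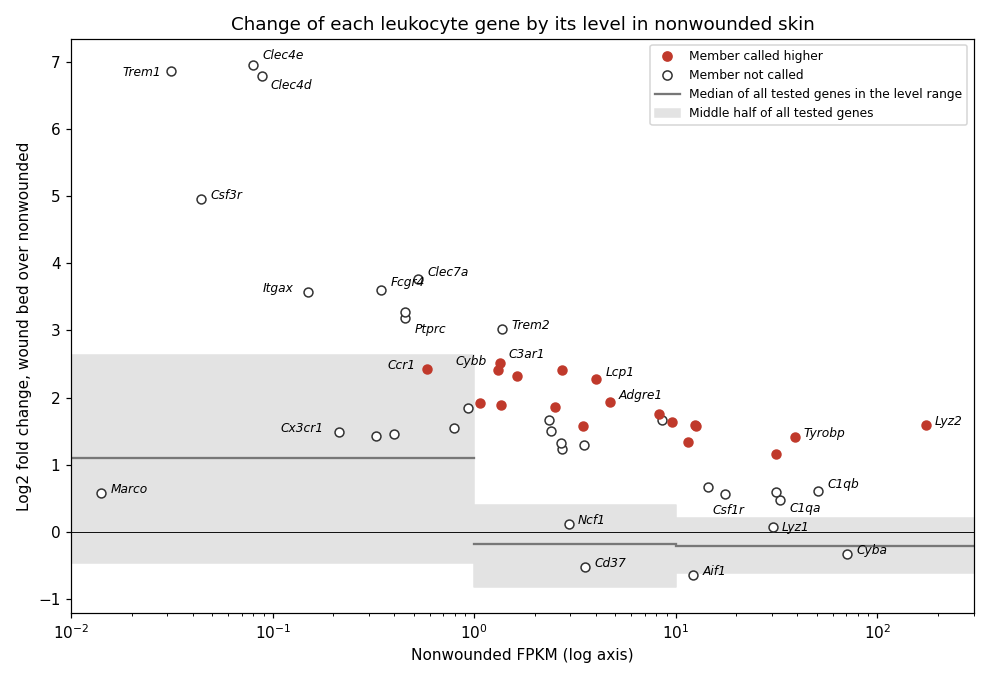
Log2 fold change (wound bed over nonwounded, vertical axis) of each of 51 leukocyte genes against its FPKM in nonwounded skin (horizontal log axis), filled in red where called higher. The grey line and band give the median and the interquartile range of all tested genes under 1 FPKM, from 1 to 10 and from 10 up. Clec4e, Clec4d and Trem1 lie near 7 at the left without a call, and Lyz2 at the right stands at 1.59.

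Isoforms gave a further view of the members. Of the 77 isoforms 65 were tested, 19 were called higher and 0 lower, beside 5.66% and 7.25% of all 17775 tested isoforms. These were the major isoforms of the 19 called genes, so a minor isoform added no gene. Among 13 members with at least 2 tested isoforms, Arhgdib, Cd37 and Cd68 had isoforms with opposite signs. The minor isoforms of Arhgdib included 1 with 20.5 in the wound bed against 4.52 in nonwounded skin and another with 2.38 in wound bed cells and 6.10 in nonwounded cells, neither called. Both tested isoforms of Itgam stood higher in the wound bed, at 8.15 in the wound bed against 1.62 in nonwounded skin and at 5.05 in wound bed cells and 0.507 in nonwounded cells.

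**Figure D3:**
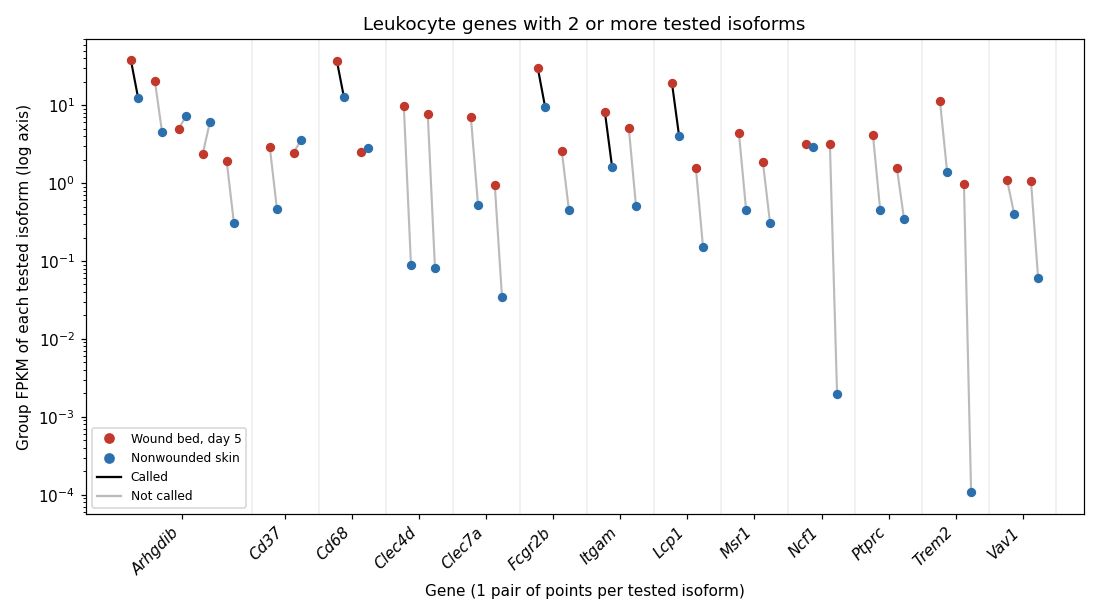
Group FPKM (vertical log axis) of each tested isoform of the 13 leukocyte genes that had more than 1, with the wound bed in red left of nonwounded skin in blue and a black line where the isoform was called. Lines fall to the right except for isoforms of Arhgdib, Cd37 and Cd68, and second isoforms of Ncf1 and Trem2 have nonwounded values near 0.

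Lists of other cell types give the setting of these values. Of 12 mesenchymal precursor genes 11 were tested, and 0 had a called major isoform. Among all genes with a tested isoform 15.7% were called in either direction, so 0 of 11 says little about these genes. The value was higher in the wound bed for 7 and lower for 4. An unadjusted p under 0.05 was found for 1, Itgb1, an integrin chain of most cells (197 in the wound bed, 117 in nonwounded skin, adjusted p of 0.0918). Ly6a had 2 minor isoforms that were called lower, and its isoforms summed to 1576 in the wound bed against 2691 in nonwounded skin. Pdgfra, a receptor often used to mark these precursors, stood at 81.2 in the wound bed against 78.8 in nonwounded skin, whereas Dcn, the decorin gene of fibroblasts, stood at 2537 in the wound bed against 2823 in nonwounded skin. Cd34 stood at 476 in the wound bed against 739 in nonwounded skin, and Mmp2 stood at 1435 against 907. Neither was called. The summed FPKM of the list was 11225 in the wound bed against 12272 in nonwounded skin. Col1a2, a collagen gene of the list, was listed at 0 in both groups with the mark of too many fragments.

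Of 31 other genes of macrophages, monocytes and dendritic cells 29 were tested. Of these 11 rose and 1 fell, beside 7.01% and 8.67% of all genes with a tested isoform. The value was higher in the wound bed for 22 of the 31 and lower for 9. The list had a summed FPKM of 797 in the wound bed against 363 in nonwounded skin. Those that rose most were Cd14 (3.51), a lipopolysaccharide co-receptor, Ctss (3.32), a lysosomal protease, and Plek (3.29), which encodes the blood cell protein pleckstrin. Cd207, the langerin gene of epidermal Langerhans cells, stood at 0.0698 in wound bed cells and 0.0821 in nonwounded cells. Of 28 signalling partners of immune receptors 23 were tested, and 4 rose and 0 fell, beside the same 7.01% and 8.67%. Pik3ap1, Fyb and Nckap1l, which encode adaptors and an actin regulator of blood cells, rose by 2.83, 2.36 and 1.65, and Skap2, an adaptor gene, rose by 1.58. The kinase gene Syk, which acts just below Tyrobp and Fcer1g, stood at 5.47 in the wound bed against 1.81 in nonwounded skin without a call.

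Lymphocyte genes were low in both groups, with no major isoform above 0.858 FPKM. Of 21 listed genes that had a row, 3 were tested and 0 called, beside 15.7% of all genes with a tested isoform (either direction). Of the 3 tested genes 1 had an unadjusted p under 0.05. The summed FPKM of the list was 5.62 in the wound bed against 2.27 in nonwounded skin. The value was higher in the wound bed for 16 of the 21 and lower for 5, with a median log2 fold change of 1.60 over the 18 that had one, at levels where nearly none was tested. Among those with a lower value, Cd3e, a chain of the T cell receptor complex, stood at 0.0177 in the wound bed against 0.0511 in nonwounded skin, and the B cell genes Ms4a1 and Pax5 were listed at 0 in the wound bed. Among those with a higher value, Cd3d and Cd3g of the same complex stood at 0.215 and 0.138 in the wound bed against 0.133 and 0.0460 in nonwounded skin. Il2rb, the tested gene with the unadjusted p under 0.05, stood at 0.858 in the wound bed against 0.159 in nonwounded skin.

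Of 17 neutrophil genes with a row 9 were tested. Of these 2 rose and 1 fell, beside 7.01% and 8.67% of all genes with a tested isoform. The value was higher in the wound bed for 14 and lower for 1, with a median log2 fold change of 2.50. Lcn2, an iron-sequestering protein of granules that other cells also make, rose by 4.93 on the log2 scale, and Mmp9, a gelatinase gene, by 2.38, while S100a9 stood at 56.6 in the wound bed against 0.310 in nonwounded skin without a call (adjusted p of 0.486). S100a8, its partner in calprotectin, stood at 40.0 in the wound bed against 0.925 in nonwounded skin, also without a call (adjusted p of 0.135), as did Retnlg at 4.63 in the wound bed against 0.820 in nonwounded skin and Hdc, the histidine decarboxylase gene, at 4.07 in the wound bed against 1.06 in nonwounded skin. The granule genes Camp, Ltf and Elane were listed at 0.486, 0.0102 and 0 in the wound bed and at 0 in nonwounded skin, and Cxcr1, a chemokine receptor gene, was at 0 in both. The gene that fell was Il1r2, a decoy receptor gene, with 57.0 in the wound bed against 202 in nonwounded skin. The list summed to an FPKM of 205 in the wound bed against 207 in nonwounded skin, and without Il1r2 to 148 in the wound bed against 5.56 in nonwounded skin.

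Markers of red cells, and all but 1 of those of mast cells, ran opposite to most phagocyte genes. Of 8 mast cell genes 6 were tested and 4 fell, beside 8.67% of all genes with a tested isoform. These were led by the protease genes Mcpt4, Tpsb2 and Cma1 with log2 fold changes of -3.69, -3.43 and -3.13. Hpgds alone had a higher value in the wound bed (0.962 against 0.529 in nonwounded skin, not called). The summed FPKM of the list was 7.24 in wound bed cells and 59.8 in nonwounded cells. Of 7 erythroid genes 6 were tested and 5 fell, beside the same 8.67%. They were led by the globin genes Hbb-bs (-5.60) and Hbb-b2 (-4.43) and the heme synthesis gene Alas2 (-4.16). The summed FPKM of the list was 206 in the wound bed against 3746 in nonwounded skin. Of 9 endothelial genes 7 were tested and 0 called (1 unadjusted p under 0.05), beside 15.7% of all genes called in either direction. The value was higher in the wound bed for 6 of the 9 and lower for 3, with a median log2 fold change of 0.58. Their summed FPKM was 28.9 in the wound bed against 92.5 in nonwounded skin, and 10.5 in the wound bed against 9.43 in nonwounded skin without Tek, an angiopoietin receptor gene with a minor isoform that was called lower. The part of these other cells in the values of the leukocyte genes was not tested.

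**Figure D4:**
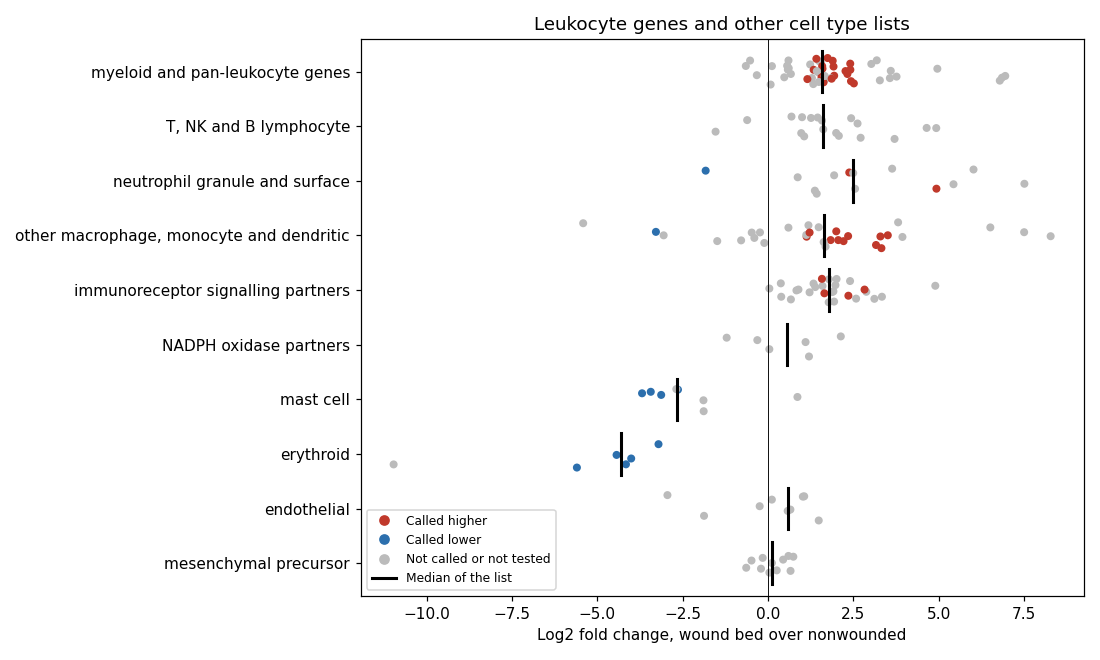
Log2 ratio of wound bed to nonwounded FPKM (horizontal axis) of the leukocyte genes (top row) and of 9 other lists, 1 point per gene, red where called higher, blue where called lower and grey otherwise, with a bar at the median of each list. A gene at 0 FPKM in a group has no point. The bar of the leukocyte genes stands at 1.60, that of the mesenchymal precursor genes at 0.12 and that of the mast cell genes at -2.66.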

How the data were processed

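Trizol and a column kit gave the RNA of the sorted cells, which went into TruSeq mRNA libraries, per the labels' protocols. TopHat2 2.0.2, Cuffdiff 2.0.2 and the build mm9 are named in the submitters' processing notes. The table holds 1 FPKM per isoform and group, as the authors deposited it, with an unadjusted p-value from the authors for each isoform. Being pooled FPKM and not counts, the values allowed no count test and no test across samples, with sample depths unknown. The number of columns of per-sample values not used was 0.

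Isoforms marked as not tested (16745), or as failed or having too many fragments (15), were left out of the adjustment. The Benjamini-Hochberg adjustment, checked on simulated p-values, matched the calls of the authors' own significance column in all 34535 isoforms. The deposited log2 column runs nonwounded over wound bed, so fold changes were computed here as wound bed over nonwounded FPKM with nothing added, and left blank for a 0. What made the authors leave an isoform untested is not given in the sources used here, and a member low in nonwounded skin may have been tested through the wound bed alone. Whether reads were assigned by strand is not given in the sources used here. Sums run over all isoforms of a gene. Of 48 members with a locus of 1 gene, 48 had an end of it within 100 bases of that in GRCm38.p6, so positions, counted from 1, are given as matching that build, although the notes name mm9.

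The members, their roles and the other lists were chosen with earlier results of these data known, and no list was tested. All members are named. Of each other list, up to 3 called genes per direction with the largest fold change were to be named. So were those at 0 in nonwounded skin and the mesenchymal genes, of which only part are named. The mesenchymal genes describe the sort, and its purity was not tested. Further genes, such as Skap2, Cd207, Syk, Cd3e, S100a8, S100a9, Retnlg, Hdc, Tek and those of the closing observations, were chosen with values seen. So were the 3 promoters printed. The alternatives were adjusted p thresholds of 0.01 and 0.1, a minimum log2 difference of 1, minimums of 1 and 5 FPKM, adjustment over isoforms of at least 1 FPKM, leaving out values of 0, any isoform of a gene, isoform sums, pseudocounts of 1 and 0.1, and centring. Matching by synonym was added after the data were seen. Python 3.11.15, numpy 2.4.6, pandas 2.3.3 and matplotlib 3.10.9 were used.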

Additional observations from a re-analysis of the deposited data

How the results depend on the processing

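The count of members called higher was 19 and of those called lower 0. It was 14 at an adjusted p under 0.01 (beside 4.56% of all genes), without Ccr1, Ccr2, Fcer1g, Fcgr1 and Itgam, and 25 at an adjusted p under 0.1 (beside 9.24%), with C5ar1, Coro1a, Fcgr4, Hcls1, Itgax and Trem2 added. With 5 FPKM asked of the higher group it was 17, without Ccr1 and Fcgr1, and the other settings tried and matching by synonym gave 19. The count called lower was 0 under each of these. The median log2 fold change of 1.60 became 1.61 with isoform sums, 1.33 and 1.59 with pseudocounts of 1 and 0.1, 1.71 when centred on the median of expressed isoforms (-0.11), 1.65 with 1 FPKM asked of the higher group, 1.63 over tested members and 1.61 with synonyms matched. Of the values of single members under these settings, 547 kept direction and call, 7 lost a call and 6 gained one. Isoform sums and centring kept the main call by construction and could change only the direction. Pseudocounts could change neither. Minimums of fold change or FPKM, and leaving out values of 0, could only remove a call. Many of the 547 were thus fixed in advance. The sign of Cd37 alone among the members reversed, to 0.40 with isoform sums. Counts for the other lists under these settings stayed within 1.5 times in 133 cases and moved further in 11. A count of 0 that stayed 0 was among the 133, and most of them were of this kind. Settings that only filter called isoforms could not raise a 0, so the 133 do not measure stability. Alternatives that leave out a sample were not run, because the table holds pooled values. No paired analysis was possible because the columns carry no replicate numbers. Depth is unknown, so what a value near 0 allows cannot be given.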

Other observations

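Macrophage and dendritic cell genes outside the set included some with lower values in the wound bed and some with much higher ones. Cd209f, a lectin gene of resident tissue macrophages, stood at 0.495 in the wound bed against 21.1 in nonwounded skin (adjusted p of 0.0555, not called), and Lyve1, a hyaluronan receptor of lymphatic vessels and of some resident macrophages, fell by 3.28 on the log2 scale. Cd163 had 1.26 in the wound bed against 3.51 in nonwounded skin and Folr2 had 17.7 in wound bed cells and 30.6 in nonwounded cells, both genes of resident macrophages and both without a call. Other macrophage genes of that list did not share this direction. Mrc1 had 14.1 in the wound bed against 6.43 in nonwounded skin and rose (adjusted p of 0.00167). Maf had 11.2 in the wound bed against 7.41 in nonwounded skin, and Fcrls had 6.13 against 6.60, both without a call. In the whole list 22 genes had the higher value in the wound bed and 9 the lower. Arg1, an arginase gene of activated macrophages, stood at 41.1 in the wound bed against 0.132 in nonwounded skin, and Ccr7, a receptor of migrating dendritic cells, at 1.86 in wound bed cells and 0.0103 in nonwounded cells, again without a call (adjusted p of 0.463 and 0.449). A pair of class II antigen presentation genes in that list, chosen after their values were seen, rose, with H2-Ab1 at 88.6 in the wound bed against 22.1 in nonwounded skin and Cd74 up by 1.22 on the log2 scale.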
